A study of Rattus norvegicus with 6 samples.

Results

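Sdha, Pgk1 and Pdk3 are 3 transcripts of energy metabolism that were measured by linear-transcript probes on the rat circRNA arrays of this study. The arrays hold 62 linear-transcript probes, and these 3 were taken from among them by probe name: CUST_12_PI421900130 (Sdha), CUST_2_PI421900130 (Pgk1) and A_44_P443343 (Pdk3). The transcripts were chosen by measured values, since their levels in AD and sham hippocampus were already known when the set was drawn up, so the differences between the groups are given as a description and no test is attached to them. Each probe is printed at 10 spots on every array, and all 3 accessions were paired with the symbols through the RefSeq gene table.

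The hippocampal RNA came from adult male Sprague Dawley rats. In the AD group (n = 3) Aβ1-42 oligomers were injected into the cerebral ventricles, and in the sham group (n = 3) the vehicle was injected into the lateral ventricles. The published methods describe the surgery and the cannula for Aβ1-42 and do not say what the sham rats received. The model is an injection of peptide into adult rats, and their ages are not given in the sources used here. Total RNA of every sample was digested with RNase R, an exonuclease that degrades linear RNA, before random-primed labelling with Cy3, and 1 sample was hybridised to each of the 6 arrays. The signal of a linear-transcript probe is therefore what was left after digestion. Whether it came from undigested mRNA or from a circle that holds the probed exon was not tested.

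The 3 proteins stand at successive points of glucose oxidation. Phosphoglycerate kinase, encoded by Pgk1, makes ATP in glycolysis. Pyruvate dehydrogenase kinases such as Pdk3 phosphorylate and switch off the pyruvate dehydrogenase complex, which passes pyruvate into the citric acid cycle. Sdha encodes the flavoprotein subunit of succinate dehydrogenase, the enzyme that belongs to both the citric acid cycle and the respiratory chain as complex II. Neurons depend on oxidative metabolism for most of their ATP. Sdha and Pgk1 are also widely used as reference transcripts in expression assays, and Pgk1 and Pdk3 lie on the X chromosome.

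The AD arrays lay in the first row of positions in the scan and the sham arrays in the second, so that position and group cannot be told apart. AD 1 to AD 3, sham 1 and sham 2 share 1 scan, and sham 3 has a scan of its own with a median local background of 28 against 16 to 17 on the other 5. No spot outside the controls was saturated. Of 10 neuron markers, Map2 and Dlg4 had a named probe, and both were well above background on all 6 arrays. None of the astrocyte, microglia, oligodendrocyte, endothelium or choroid plexus markers listed was paired with a probe here (0 in each list), so the part of cell composition was not tested. In bulk tissue, fewer cells of a type and less RNA per cell cannot be told apart. Nothing in the labels says that each sample is a separate animal, so an SD given here is the spread between these samples, which may be technical. Standard errors are those of limma, which draws the variance of a probe towards that of the other probes, and so they can be larger or smaller than the SDs would give.

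In these arrays Sdha was 4.42-fold higher in AD than in sham and Pgk1 1.58-fold higher, and for both of them every AD array lay above every sham array. The same held for 15.4% of all 11608 probes tested and for 28.6% of the linear-transcript probes among them. Pdk3 had a mean 1.43-fold lower in AD, but its groups overlapped. Levels are log2 processed signals minus the 75th percentile of all non-control probes on the same array, averaged over the spots of a probe that were not flagged as outliers. A level of 0 is thus a probe as bright as that percentile, and levels of different probes are not compared.

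Sdha had levels of 1.89, 1.83 and 1.52 on AD 1, AD 2 and AD 3. On sham 1, sham 2 and sham 3 its levels were 0.55, -0.68 and -1.04. The AD arrays stood close together, whereas sham 1 lay between them and the other sham arrays, with a gap of 0.98 to the lowest AD array. Sdha averaged 1.75 ± 0.20 (SD, n = 3) over the AD samples, whereas sham averaged -0.39 ± 0.83 (SD, n = 3), a log2 difference of 2.14 with a standard error of 0.41 from limma. Within the sham group the levels spanned a 3.00-fold range, and within the AD group they spanned 0.37 on the log2 scale. Without sham 1 the log2 difference was 2.61, and without sham 3, which leaves the arrays of 1 scan, it was 1.82.

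Pgk1 had levels of -1.47, -2.002 and -1.72 on AD 1, AD 2 and AD 3. The sham arrays had -2.54, -2.35 and -2.30. All 3 sham arrays fell within 0.24 of each other, and the lowest AD array was 0.30 above the highest of them. Pgk1 averaged -1.73 ± 0.27 (SD, n = 3) over the AD samples, whereas sham averaged -2.39 ± 0.13 (SD, n = 3), a log2 difference of 0.66 with a standard error of 0.23 from limma. For Pgk1 the spread was wider in AD than in sham, the opposite of Sdha. The difference depended on how background was handled, since it was 0.23 from the median signal minus local background and 0.22 after normexp, a model-based background correction, and the groups overlapped in both. The Pgk1 spots of sham 1 had a median signal of 59.5 and a local background of 16, against a processed signal of 13.4. On AD 1 these were 69, 16.75 and 29.9. Local background thus takes off less than the processed signal does. Like normexp, this makes the difference of a dim probe smaller by construction. The groups also overlapped without scaling between arrays, where the log2 difference was 0.49. On the arrays of 1 scan it was 0.71.

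Pdk3 had levels of -3.45, -2.36 and -2.55 on AD 1, AD 2 and AD 3. Its sham levels were -2.50, -2.18 and -2.14. AD 1 stood far below the rest, AD 2 lay above sham 1, and AD 3 lay just below sham 1. Pdk3 averaged -2.79 ± 0.58 (SD, n = 3) over the AD samples, whereas sham averaged -2.27 ± 0.20 (SD, n = 3), a log2 difference of -0.51 with a standard error of 0.32 from limma. Of the 9 pairs of an AD and a sham array, AD was the higher in 1 for Pdk3 and in all 9 for Sdha and for Pgk1. The Pdk3 difference rested largely on AD 1, without which it was -0.18. It was -0.073 after normexp, which makes the difference of a dim probe smaller by construction, and the groups overlapped there. Every AD array lay below every sham array from the median signal minus local background, as at 1867 of the 11608 probes tested. The difference there was -0.27, and that setting too makes the difference of a dim probe smaller. On the arrays of 1 scan it was -0.45. On AD 1 Pdk3 was not well above background, so its level there is a signal under that limit.

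**Figure D1:**
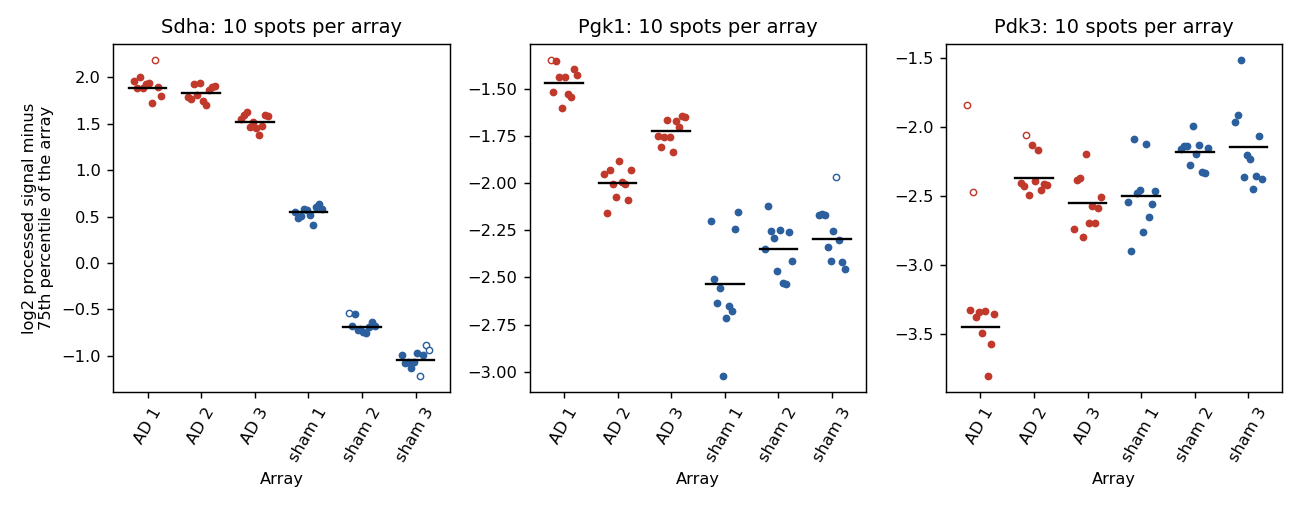
Level of each of the 10 spots of Sdha, Pgk1 and Pdk3 on 6 arrays (x axis, AD red and sham blue), as log2 processed signal minus the 75th percentile of the array (y axis, a different range in each panel). Open points are flagged spots and black bars are the mean of the others. The Sdha bars fall from 1.52 or more in AD to 0.55 or less in sham, the Pgk1 bars do not overlap between groups, and Pdk3 on AD 1 lies at -3.45.

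The spots show how much of this spread is technical error within an array. For Sdha the SD of the spot levels was 0.06 to 0.08 on the 6 arrays, with a median of 0.07, against an SD of 0.83 between the sham arrays. The processed signal of its spots ran from 238.7 to 473.8 over the AD arrays and from 46.9 to 126.0 over the sham arrays, so no spot of one group reached the other. If the scatter of spots were the sole error, the log2 difference of Sdha would have a standard error of 0.02 in place of 0.41.

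For Pgk1 the spot SD was 0.07 to 0.08 on the AD arrays and 0.27, 0.14 and 0.12 on sham 1, sham 2 and sham 3. The widest scatter was on sham 1, where unscaled signals were lowest. The spots of sham 1 ran from -3.02 to -2.15, and those of AD 2, the lowest AD array, from -2.16 to -1.88. The ranges of single spots thus met between the groups, while the means of 10 spots did not. The median processed signal of the Pgk1 spots was 29.9 on AD 1, 31.0 on AD 2 and 27.7 on AD 3, and among the sham samples it was 13.4, 29.5 and 22.5. Before scaling, sham 2 was therefore about as bright as the AD arrays, and the 75th percentile of sham 2, a log2 signal of 7.20 against 6.34 to 6.95 in AD, placed it lower.

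For Pdk3 the spot SD ran from 0.10 on sham 2 to 0.29 on sham 3, and its median of 0.18 was the widest of the 3. On sham 1 and sham 2 the spot SD of Pgk1 was wider, at 0.27 and 0.14 against 0.25 and 0.10 for Pdk3. On AD 1 the Pdk3 spots had a median processed signal of 7.97. This was under the lowest signal that any non-control spot well above background had on that array, 8.63. On AD 1 there were 2 Pdk3 spots well above background, and both had been flagged as outliers, with levels of -2.47 and -1.84. With flagged spots kept, the log2 difference of Pdk3 was -0.42. On the other 5 arrays all 10 Pdk3 spots were well above background, as were all spots of Sdha and Pgk1 on every array.

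Each spot position was also compared between the groups by itself, with flagged spots included. Sdha was higher in AD at all 10 positions, by 2.09 to 2.22 on the log2 scale, and at all 10 the AD arrays stood above the sham arrays. Pgk1 was higher in AD at all 10 positions, by 0.44 to 0.82, and without overlap at 8 of them. Pdk3 was lower in AD at all 10, by 0.11 to 0.54 on the log2 scale, and without overlap at 1. The 10 spots read the same RNA on the same arrays, so they repeat 1 comparison and are not replicates of a condition.

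**Figure D2:**
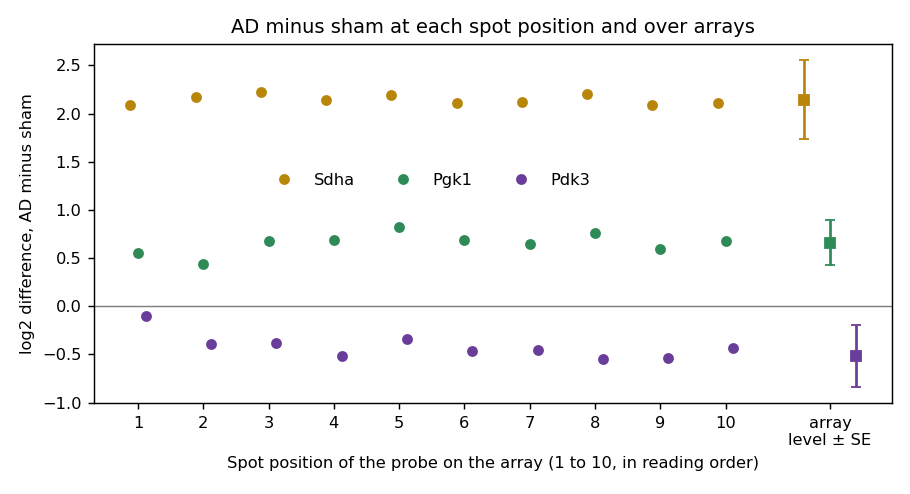
AD minus sham log2 difference (y axis) at each of the 10 spot positions of a probe (x axis, in reading order of the array), with squares for the difference of array levels ± standard error from limma. Positions of a transcript agree closely for Sdha at 2.09 to 2.22, while the error bars between arrays are far wider.

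A few positions deviated alike on the arrays. Position 3 of Pdk3 lay above the mean of the 10 spots on all 6 arrays, by 0.38 on average, and positions 6 and 8 lay below it on all 6. Position 7 of Sdha was below the mean on all 6 arrays by 0.15 on average, and position 5 of Pgk1 by 0.17. These offsets took the same sign in both groups, and their cause was not tested.

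The differences of Sdha, Pgk1 and Pdk3 were placed among those of all probes tested. Probes were tested if 3 or more of the 6 arrays had them well above background, which left 11608, of which 11580 were circRNA probes and 28 linear-transcript probes, all 3 members included. The AD arrays all lay above the sham arrays for 15.4% of these probes and for 28.6% of the linear-transcript probes (8 of 28), against 2 of the 3 members. The members had been picked with this contrast known, so nothing is read from that count. Of the 28 linear-transcript probes, 21 were well above background on all 6 arrays. Rpl13a passed through the AD arrays alone, so the 8 include a probe that was high in AD by selection. With a filter on all 6 arrays the share over all probes was 14.4%. A larger AD minus sham difference was found at 301 of the 11608 probes for Sdha, at 1793 for Pgk1 and at 9576 for Pdk3. The place of Pdk3 rests on its AD 1 signal, which was not well above background. Among the 28 linear transcripts 1 exceeded Sdha and 6 exceeded Pgk1, while 2 were lower than Pdk3. The median log2 difference was 0.0026 over all probes and 0.29 over the linear transcripts.

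**Figure D3:**
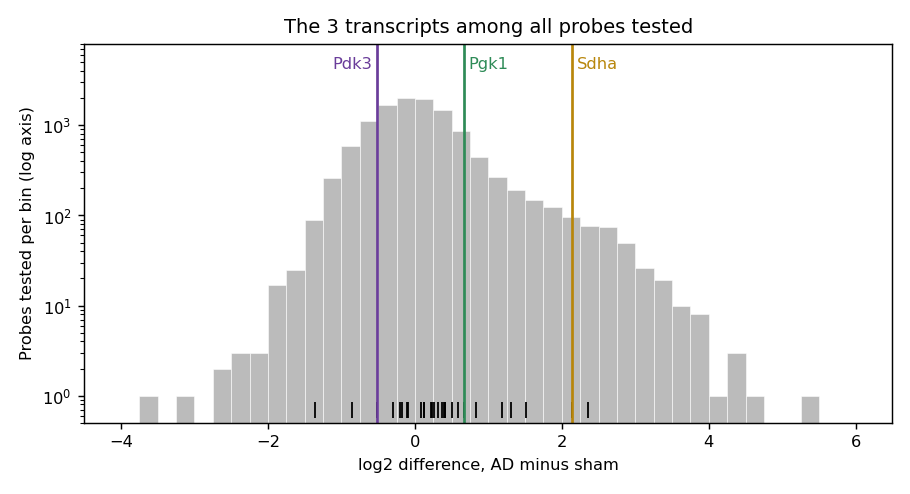
Number of probes tested (y axis, log axis) by AD minus sham log2 difference (x axis, bins of 0.25), with vertical lines for Pdk3 at -0.51, Pgk1 at 0.66 and Sdha at 2.14. Short ticks at the foot mark the 28 linear transcripts, and Sdha stands in the right tail of the probes.

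The place of sham 1 among the sham arrays differed between the 2 higher transcripts. Sham 1 was the highest sham array for Sdha, as it was for 74.1% of the 1784 probes whose AD arrays all lay above sham. For Pgk1 sham 1 was the lowest sham array, which held for 14.8% of those probes. For Pdk3, too, sham 1 was the lowest sham array, but Pdk3 is not one of those 1784 probes. Both shares cover only probes selected for AD above sham, and shares over all probes tested are not given. Sdha thus differed from Pgk1 and Pdk3 in the place of sham 1, which was lowest for both of the latter. The spot SD of sham 1 was 0.27 for Pgk1 and 0.25 for Pdk3, so its lowest place there is only a description. Sham 2 and sham 3 lay close together, at -2.35 and -2.30 for Pgk1 and -2.18 and -2.14 for Pdk3. Their spot SDs were 0.14 and 0.12 for Pgk1 and 0.10 and 0.29 for Pdk3, so nothing is read from the order of these 2 arrays. After each profile was centred on its own mean, the root mean square difference over the 6 arrays was 0.94 between Sdha and Pgk1, 1.51 between Sdha and Pdk3, and 0.76 between Pgk1 and Pdk3.

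Measured in the same way against the 20 other linear transcripts that were tested and had a symbol, the profile nearest to Sdha was that of Ptk2b, a calcium-sensitive tyrosine kinase, at a root mean square difference of 0.38, where the median of the 20 was 1.04. Ptk2b had levels of 1.62, 1.20 and 0.97 in AD and 0.18, -2.09 and -1.38 in sham, so that it too had sham 1 between the groups. Rpl13a, a ribosomal protein transcript, and Ppp2r2b, a regulatory subunit of protein phosphatase 2A, followed at 0.72 and 0.81. Rpl13a was well above background on the 3 AD arrays and on 0 of the sham arrays, so its sham levels are signals under that limit. The nearest circRNA probe was ASCRPR007266 at 0.11.

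Nearest to Pgk1 were B2m, the light chain of class I major histocompatibility molecules, at 0.14, the postsynaptic scaffold Dlg4 at 0.24 and 1 probe of Ldha at 0.28, with a median of 0.43. B2m shared the order of the AD arrays with Pgk1, at -0.66, -1.35 and -0.95, and had sham 1 lowest, at -1.92 against -1.28 and -1.51. The nearest circRNA probe was ASCRPR012422 at 0.07.

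Nearest to Pdk3 were Pdcd10 at 0.23, the ubiquitin-ligase adaptor Ndfip1 at 0.25 and Actb, which encodes β-actin, at 0.35, with a median of 0.71. Pdcd10 and Ndfip1 were, like Pdk3, lowest on AD 1, at -2.55 and -3.24. The Ndfip1 level there was near the -3.45 of Pdk3, and so close to the background limit. Actb was instead lowest on sham 1. The nearest circRNA probe was ASCRPR008235 at 0.04. With 11570 circRNA probes to choose from, a near profile is easily found, and these matches are descriptions. Pdk3 was not well above background on AD 1, so its matches rest in part on a signal under that limit.

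**Figure D4:**
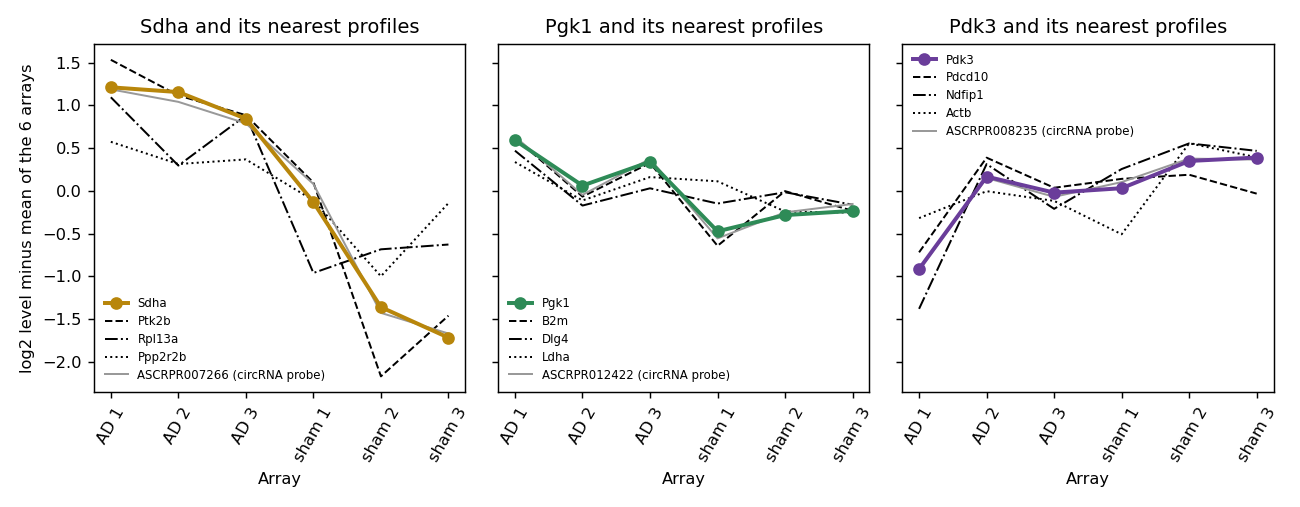
Log2 level minus the mean of the 6 arrays (y axis) by array (x axis) for Sdha, Pgk1 and Pdk3 (coloured), their 3 nearest named linear transcripts (black) and nearest circRNA probe (grey). Lines join arrays for legibility and carry no order. Sdha and Ptk2b share a sham 1 value between AD and the other sham arrays.

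Of 57 genes of glycolysis, the pyruvate dehydrogenase complex, the citric acid cycle, the respiratory chain and ATP synthase, 4 had a named linear-transcript probe: the 3 members and Ldha, the lactate dehydrogenase subunit that links pyruvate and lactate, which had 2 probes. Ldha was not one of the 3 chosen transcripts, but the list that names it was drawn up with earlier results of these data known, so its p-values are not independent of that choice. At probe CUST_6_PI421900130 Ldha had -0.27, -0.72 and -0.44 in AD and -0.49, -0.85 and -0.86 in sham, and the groups overlapped. The log2 difference there was 0.26 with a standard error of 0.23 (adjusted p = 0.544 from limma, unadjusted p = 0.307), and it turned to -0.057 when arrays were scaled to the detected linear transcripts. This Ldha probe is itself in that scaling set, and the linear transcripts had a median log2 difference of 0.29. A small value thus follows from the scaling, and nothing is read from the change of sign. At probe A_44_P210461 Ldha had -0.99, -1.13 and -1.09 in AD and -1.05, -0.92 and -0.93 in sham, a log2 difference of -0.10 with a standard error of 0.20 (adjusted p = 0.792 from limma, unadjusted p = 0.629). The 2 probes of Ldha thus differed in sign, and neither passed the test, which 2.25% of all probes passed (261 of 11608). That number was itself unstable, at 0 without AD 3, sham 2 or sham 3 and 1956 without sham 1. Since 3 of the 5 probes of these genes are the members themselves, no count over the list is given.

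Sdha and Pgk1 also belong to the transcripts often used as references. Of 8 other reference probes that were tested, 6 were higher and 2 lower in AD, with a median log2 difference of 0.24. Over all 28 linear transcripts tested, 20 were higher in AD, with a median of 0.29. The AD arrays all lay above the sham arrays at 1 of the 8, against 28.6% of the linear transcripts. That probe, Rpl13a, passed the filter on signal through the AD arrays alone, so nothing is read from its separation. It is also counted among the 6 and the 20 that were higher. Actb had a log2 difference of -0.29 and B2m one of 0.59. With that scaling, which takes the median of the linear transcripts without the 3 members in place of the 75th percentile, Sdha had a log2 difference of 1.83, Pgk1 of 0.35 and Pdk3 of -0.83, and Sdha and Pgk1 still had no overlap between groups. That scaling moved the median of all probes tested to -0.31.

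**Figure D5:**
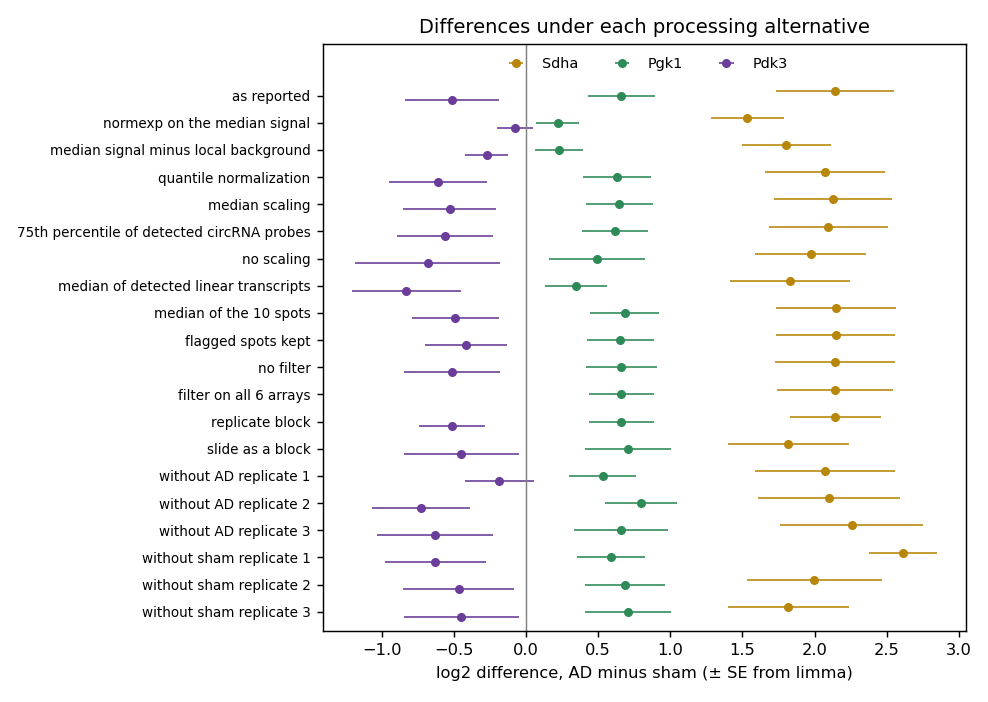
AD minus sham log2 difference ± standard error from limma (x axis) of Sdha, Pgk1 and Pdk3 under each processing alternative (y axis). Sdha runs from 1.54 to 2.61, Pgk1 from 0.22 to 0.80 and Pdk3 from -0.83 to -0.073. Pdk3 has no point for the filter on all 6 arrays. The block labelled slide is a block for scan.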

How the data were processed

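Intensities of 3 AD and 3 sham arrays were analysed. Per the file headers, Agilent Feature Extraction 11.0.1.1 turned the scans into spot values. The deposited intensities comprise a processed signal for each spot, background-corrected by that program, and an uncorrected median signal with the background around the spot, beside flags of 0 or 1. The submitters' processing notes also name limma, with no role. The deposited log2 table of circRNA probes holds no row for the 3 transcripts and was not used.

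Of 15701 spots, 536 control spots were left out, as were 20 custom probes without an accession, except in the scaling. Log2 processed signals of unflagged spots were averaged per probe and reduced by the array's 75th percentile. A probe counted as well above background on an array if at least 50% of its unflagged spots were. AD was compared with sham in R 4.3.3 with limma 3.58.1 (lmFit and eBayes) over 11608 probes, with Benjamini-Hochberg adjustment over all of them, and the fit was tested on simulated data. For 10 probes a flagged spot left an array without a value, and the fit used the others.

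The members and lists were chosen with earlier results of these data known. The genes named are the members, the 3 named linear transcripts and the 1 circRNA probe nearest to each in profile, and the listed energy and reference transcripts. Alternatives covered background correction, scaling, spot summary, flags, filters, blocks for scan and replicate number, and each array left out. The files name the build rn4 and the gene table GRCr8, so no gene coordinates are given, and the sequences of the probes were not used here. The number of arrays limits the precision.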

Additional observations from a re-analysis of the deposited data

How the results depend on the processing

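Of the 19 alternatives, 15 gave a value of their own for each of the 3 transcripts. The filters and the replicate block cannot move a difference, and the scan block equals leaving out sham 3. In these 15 the sign of the log2 difference held for Sdha, Pgk1 and Pdk3. The filter on all 6 arrays left Pdk3 out. Normexp moved Sdha to 1.54, Pgk1 to 0.22 and Pdk3 to -0.073. Its offset of 50 makes the difference of a dim probe smaller by construction. The median signal minus local background gave 0.23 for Pgk1 and changed the median spot SD to 0.0884 for Sdha and 0.096 for Pdk3. It takes off less than the processed signal does, which likewise makes the difference of a dim probe smaller. Scaling to linear transcripts gave 0.35 for Pgk1, lowered the share of probes with AD above sham from 15.4% to 8.82% and turned Ldha at CUST_6_PI421900130 to -0.057. That Ldha probe is in the scaling set, so a small value follows from the scaling. No scaling moved the median of all probes to -0.17. The cause of these shifts was otherwise not tested. Adjusted p-values from limma ran from 0.288 to 0.894 for Ldha at CUST_6_PI421900130 and from 0.223 to 0.959 at A_44_P210461.

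Leaving out 1 array gave 1.82 to 2.61 for Sdha, 0.53 to 0.80 for Pgk1 and -0.73 to -0.18 for Pdk3, and 16.2% to 26.1% of probes with AD above sham, where fewer arrays make this easier. Without overlap, AD was above sham in all 15 for Sdha and 12 for Pgk1, and below it in 3 for Pdk3. Those 3 were the median signal minus local background, without AD 2 and without sham 1. Probes with all AD arrays below sham numbered 1867, 2589 and 3117 there, and 1730 of 11608 as reported. In limma, 261 probes passed an adjusted p under 0.05, against 3 without AD 1, 16 without AD 2, 1956 without sham 1, and 0 without AD 3, sham 2 or sham 3 (1611, 1935 and 1619 at an unadjusted p under 0.05). Other processing gave 0 to 535, with 535 for the median signal minus local background, 158 with quantile normalization, 80 without a filter and 21 with linear-transcript scaling. The replicate block left the differences at 2.14, 0.66 and -0.51 and called 0 probes (3208 at an unadjusted p under 0.05). Deviations of same-numbered arrays correlated at 0.17, 0.19 and 0.03, and arrays were not treated as paired.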
